A study of Bos taurus with 15 samples.

Results

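Mast cell and histamine genes were followed in the subcutaneous adipose tissue of primiparous Holstein cows around their first calving. They were taken by name from a list of 10 symbols: *CPA3*, *KIT*, *MS4A2*, *FCER1A*, *HDC*, *HPGDS*, *HNMT*, *AOC1*, *HRH1* and *GATA2*. Of these, 8 had values in all 6 comparisons of the study, out of 13896 genes listed in the data, and *MS4A2* and *HPGDS* were not analysed here. The list was drawn up with the comparison of cows in a severe and in a moderate negative energy balance (SNEB and MNEB) in view, and the values of these genes in that comparison are therefore a description, given without a test.

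RNA was sequenced in 15 libraries, 3 in each of 5 groups. The first group was sampled at -4 weeks peripartum (wkpp), before the diets began. SNEB cows, labelled LE for the low energy diet, were sampled at 1 and 16 wkpp, and so were MNEB cows, labelled HE for the high energy diet. All were Prim Holstein cows with no treatment beside the diet in the labels, and the biopsies came from the dewlap. The study picked cows of extreme energy balance after calving, so diet and energy balance cannot be told apart. Sample titles also carry a tag, m1 or m2, of unstated meaning that has 1 value per group, so it cannot be told apart from the group either. The labels do not say which libraries came from the same cow, and p-values measure the spread between these libraries only.

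Mast cells are resident immune cells of connective tissue, found along vessels and nerves, also in fat. They depend on the receptor KIT, carry the high-affinity IgE receptor on their surface, and store histamine and proteases such as carboxypeptidase A3 in granules. Histamine is made from histidine by HDC and is broken down by HNMT inside cells and by AOC1 (diamine oxidase) outside them, and it acts on vessels and other cells through receptors such as HRH1.

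The deposited tables give, for each gene, a mean over the 6 libraries of a comparison. The whole-number count of each library was solved from these means, for reads on exons (exonic counts) and for reads on exons and introns together (whole-gene counts). Levels below are counts divided by the size factor of the library, which scales libraries of different depth to each other, and they are rounded to 3 significant digits. Libraries are numbered within a group only as names, from the largest size factor to the smallest. Exonic counts summed to 6736862 to 12821986 per library at -4 wkpp and in SNEB, and to 1840429 to 6666411 in MNEB. Synthetic spike-in RNAs made up 0.102 to 0.862% of exonic counts at -4 wkpp and in SNEB and 1.62 to 11.8% in MNEB. In the paper's alignment summary, total reads per library were similar in all groups. Every MNEB library there had a smaller share of uniquely aligned reads and more reads mapped to multiple places than any other library. Every difference from MNEB below goes with these differences in depth, spike-in share and alignment, whose part in it was not tested.

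*CPA3*, the gene of the granule protease carboxypeptidase A3, had normalised exonic counts of 1090, 684 and 725 in the libraries at -4 wkpp. In SNEB they were 401, 997 and 203 at 1 wkpp and 657, 408 and 555 at 16 wkpp. In MNEB they were 30.2, 21.5 and 25.6 at 1 wkpp and 21.5, 23.1 and 51.3 at 16 wkpp. Each of the 6 MNEB libraries lay below each of the other 9, whereas the libraries of both SNEB times overlapped, as did those of both MNEB times. These MNEB levels rested on 7 to 29 reads per library, against 310 to 1888 elsewhere.

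*KIT*, the receptor for stem cell factor that mast cells need to survive, followed the same order. Its normalised exonic counts were 3220, 1950 and 2470 at -4 wkpp, 1160, 1970 and 924 in SNEB at 1 wkpp and 1640, 1550 and 1860 in SNEB at 16 wkpp. They were 256, 220 and 406 in MNEB at 1 wkpp and 276, 223 and 394 in MNEB at 16 wkpp. The MNEB libraries again lay below all others, with 82 to 282 reads each. *KIT* is also expressed by melanocytes, and the 6 melanocyte markers in the data had summed levels of 129 to 205 at -4 wkpp, 199 to 410 in SNEB and 140 to 332 in MNEB.

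*FCER1A*, the IgE-binding chain of the high-affinity IgE receptor, rested on few reads in MNEB. Its levels were 90.7, 129 and 82.3 at -4 wkpp, 10.8, 97 and 6.53 in SNEB at 1 wkpp and 90.1, 49.1 and 72.4 in SNEB at 16 wkpp. In MNEB at 1 wkpp the 3 libraries held 0, 2 and 1 reads, and at 16 wkpp 16, 0 and 3. In the third MNEB library at 1 wkpp, the least deep, 3 reads would stand for a normalised count of 11, so lower levels were not measurable there. The MNEB libraries lay below those at -4 wkpp and in SNEB at 16 wkpp, while SNEB at 1 wkpp overlapped with MNEB at 16 wkpp.

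*HDC*, which makes histamine, was nearly equal in the libraries at -4 wkpp, at 129, 127 and 133, and was below these values in all 12 others. It was 11.4, 114 and 6.53 in SNEB at 1 wkpp and 56.2, 19.6 and 28.4 in SNEB at 16 wkpp. In MNEB it was 3.12, 29.6 and 0 at 1 wkpp and 39.1, 0 and 67.5 at 16 wkpp, from 0 to 40 reads per library. All 4 groups after calving overlapped in *HDC*, unlike in *CPA3* and *KIT*.

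**Figure D1:**
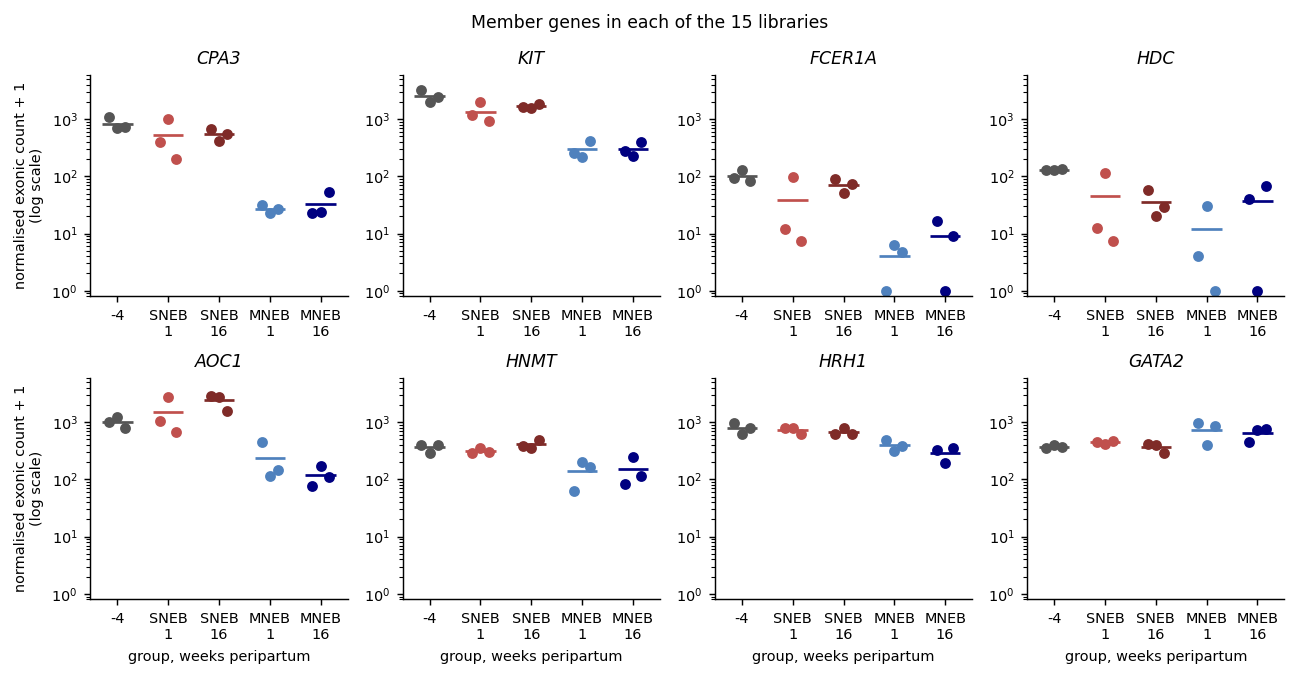
Normalised exonic count plus 1 of each of the 8 genes (log scale) in the 15 libraries, by group; each point is a library and each line the mean of its group (n = 3). *CPA3* and *KIT* lie lower in all MNEB libraries than in any other, *HDC* is highest in the libraries at -4 wkpp, and *GATA2* is highest on average in MNEB.

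Of the enzymes that break down histamine, *AOC1* was the more variable. Its normalised exonic counts were 992, 1230 and 799 at -4 wkpp, 1050, 2790 and 661 in SNEB at 1 wkpp and 2920, 2790 and 1590 in SNEB at 16 wkpp. In MNEB they were 442, 113 and 143 at 1 wkpp and 77.2, 174 and 108 at 16 wkpp. The highest mean was that of SNEB at 16 wkpp, 2430 ± 730 (SD, n = 3), and the lowest that of MNEB at 16 wkpp, 120 ± 49.7, with no overlap between MNEB and the other groups.

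*HNMT*, the methyltransferase that inactivates histamine inside cells, varied less. Its levels were 407, 286 and 407 at -4 wkpp, 286, 349 and 296 in SNEB at 1 wkpp and 391, 352 and 489 in SNEB at 16 wkpp. They were 62.4, 199 and 161 in MNEB at 1 wkpp and 83.1, 249 and 116 in MNEB at 16 wkpp. No MNEB library reached the lowest of the others, at 286.

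*HRH1*, the histamine receptor of vessel walls and many other cells, had exonic levels of 970, 626 and 803 at -4 wkpp, 787, 787 and 632 in SNEB at 1 wkpp and 619, 808 and 618 in SNEB at 16 wkpp. They were 485, 314 and 380 in MNEB at 1 wkpp and 332, 195 and 354 in MNEB at 16 wkpp. The MNEB libraries, from 195 to 485, lay below the others, from 618 to 970. The whole-gene levels did not separate the groups: they ran from 1320 to 2640 at -4 wkpp and from 1360 to 2520 in MNEB at 1 wkpp.

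*GATA2*, a transcription factor of mast cells, blood progenitors and endothelium, had its highest group means in MNEB. Its levels were 352, 400 and 373 at -4 wkpp, 450, 423 and 473 in SNEB at 1 wkpp and 416, 399 and 291 in SNEB at 16 wkpp. They were 961, 406 and 856 in MNEB at 1 wkpp and 458, 726 and 748 in MNEB at 16 wkpp. The 9 blood vessel endothelium markers summed to 21400 to 26900 at -4 wkpp, 32700 to 40600 and 25100 to 28400 in SNEB at 1 and 16 wkpp, and 32200 to 68200 and 26700 to 38100 in MNEB at 1 and 16 wkpp. Their part in the level of *GATA2* was not tested.

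The libraries at -4 wkpp were compared with those of MNEB at 1 wkpp with limma voom. The fit took all genes with a mean normalised count of at least 10. The group at -4 wkpp has no energy balance label and also serves the comparison with SNEB. Time and the set of cows therefore cannot be told apart. A gene was counted as differentially expressed (DEG) when its adjusted p-value was below 0.01 on exonic and on whole-gene counts, with the same sign. Differences are those of the first group minus the second, in log2 units.

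*KIT* was the only one of the 8 genes that passed, and it was expressed more at -4 wkpp, by 3.18 ± 0.28 (SE) on the log2 scale on exonic counts (adjusted p = 0.000123) and 2.32 ± 0.31 on whole-gene counts (adjusted p = 0.00968). The background was 1.51% of 10365 genes, with 0.878% higher and 0.627% lower at -4 wkpp. The call of *KIT* was lost, on whole-gene counts, under total count scaling (adjusted p = 0.0126), upper quartile scaling (0.011) and with no filter on low counts (0.0128), while *CPA3* also passed under limma trend and with all 15 libraries in the fit. The call of *KIT* was lost too when any one of the 6 libraries was left out, with an adjusted p of 0.0137 to 0.0639 on whole-gene counts and of at most 0.000914 on exonic counts. The background count also rested on single libraries: 0 DEGs without any one of the libraries at -4 wkpp or without MNEB library 3, 2 without MNEB library 2 and 174 without MNEB library 1.

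On exonic counts alone, *FCER1A* and *HDC* aside, *KIT*, *CPA3*, *AOC1* and *HNMT* passed. All were expressed more at -4 wkpp, where 7.19% of all genes passed in that direction. The log2 difference was 4.87 ± 0.51 for *CPA3*, 2.10 ± 0.44 for *AOC1* and 1.78 ± 0.39 for *HNMT*. Adjusted p-values of the genes that passed ran from 0.000123 to 0.00729. *HDC* had 14 reads in MNEB. Scaled for this comparison alone, their mean fell below the minimum for testing, so *HDC* was tested only through the libraries at -4 wkpp. Its fitted value, 4.56 ± 0.88, is therefore a description. *FCER1A* had a mean of 3.01 in MNEB and was high enough to be tested only through the libraries at -4 wkpp, so its fitted value, 5.76 ± 1.22, is a description. *CPA3* and *KIT* passed on exonic counts without any one of the 6 libraries, while 2 to 5 of the 8 genes passed in these fits, with *HDC* counted in 3 of them. In these fits the log2 difference ran from 4.65 to 5.07 for *CPA3*, and from 2.99 to 3.35 for *KIT*. Without MNEB library 1 it was 4.05 for *FCER1A*, 3.92 for *HDC*, 3.00 for *AOC1* and 1.01 for *HNMT*, and without MNEB library 2 it was 5.61 for *HDC*. *AOC1* passed without the first MNEB library alone and *HNMT* without the second alone. *HDC* reached the threshold without library 2 at -4 wkpp or library 2 or 3 of MNEB. Its MNEB libraries held 3, 11 and 0 reads, so this is a description and not a call. On whole-gene counts the adjusted p-value was 0.0136 for *CPA3*, 0.0402 for *HDC*, 0.0638 for *AOC1* and 0.0668 for *HNMT*. The fitted value of *FCER1A* depends on the prior count, because MNEB held 3 reads in all against 455 at -4 wkpp. From these reads its ratio was 55, with a 95% interval of 18.7 to 268 that covers counting error only.

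*HRH1* and *GATA2* did not pass in either analysis, though *GATA2*, lower at -4 wkpp, passed on exonic counts without MNEB library 2. *HRH1* differed by 0.99 ± 0.26 on exonic counts (adjusted p = 0.0159) and by 0.15 ± 0.35 on whole-gene counts, and *GATA2* by -0.90 ± 0.31 and -0.88 ± 0.37. The exonic levels of all 8 genes did not overlap between the groups, 7 of them higher at -4 wkpp, where 46.9% of all genes tested did not overlap and 23.3% were higher at -4 wkpp without overlap. The median log2 difference of the 8 genes was 2.64 on exonic counts and 2.07 on whole-gene counts, beside 0.05 and 0.07 for all genes, and without *FCER1A* it was that of *AOC1*, 2.10 and 1.81. The MNEB libraries of this comparison are those of the comparison with SNEB that the genes were chosen on, so these values are not independent of the choice.

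Between -4 wkpp and SNEB at 1 wkpp, none of the 8 genes passed. Neither did any of the 10542 genes tested (background 0%) with limma voom, while 7 did with limma trend, none of them among the 8. Without the adjustment, p was below 0.05 for 1526 genes on exonic counts, or 14.5%, and for 3 of the 8 genes. These were *HDC*, with a log2 difference of 2.58 (95% interval 0.88 to 4.28), *KIT*, with 0.96 (0.27 to 1.65), and *FCER1A*, with 2.32 (0.62 to 4.01), and their adjusted p-values were 0.142, 0.187 and 0.19. *CPA3* differed by 0.90 (-0.23 to 2.03), *AOC1* by -0.32 (-1.37 to 0.72), *HNMT* by 0.22 (-0.24 to 0.67), *HRH1* by 0.10 (-0.36 to 0.57) and *GATA2* by -0.26 (-0.60 to 0.08). The groups did not overlap in 2 of the 8 genes, *HDC* and *GATA2*, beside 19.7% of all genes. The 3 libraries at -4 wkpp are the same as in the comparison with MNEB. The SNEB libraries belong to the comparison that the genes were chosen on, so these values are not independent of the choice either.

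The second SNEB library at 1 wkpp stood apart from the other two in several of these genes. It was the highest of its group in 7 of the 8 genes, *GATA2* being the exception, 17.5 times as high as the lowest for *HDC* and 14.8 times for *FCER1A*, but only 1.22 times for *HNMT*. Tryptase *TPSB2*, another granule protease, named here after its values were seen, was at 158 in this library and at 23.3 and 11.8 in the others. The same library had the highest summed markers of its group for macrophages (26500, against 16600 and 12000), T cells (600, against 365 and 255) and B cells (108, against 57.4 and 36.6), whose part in these levels was not tested. Without it the mean of *HDC* in SNEB at 1 wkpp fell from 44.1 to 8.95 and that of *FCER1A* from 38.1 to 8.68. The log2 difference from -4 wkpp was then 3.83 for *HDC* (adjusted p = 0.00204 on exonic and 0.0147 on whole-gene counts) and 3.50 for *FCER1A* (0.00561 and 0.0844), so that neither was a DEG, while 80 genes were in that fit of 5 libraries.

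**Figure D2:**
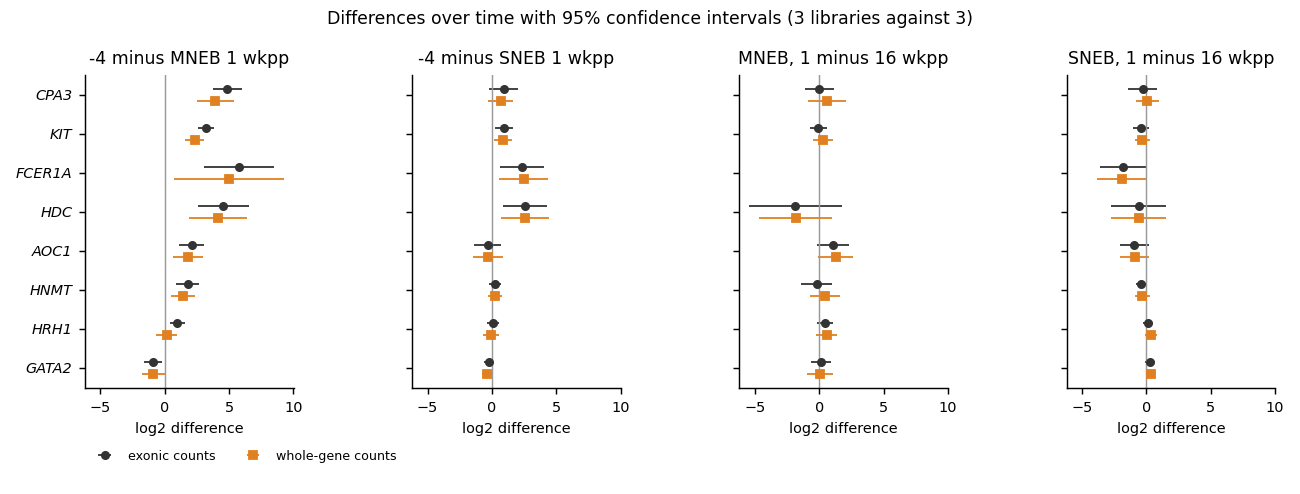
Log2 difference of each of the 8 genes over time (horizontal axis) with its 95% confidence interval, on exonic counts (circles) and whole-gene counts (squares), 3 libraries against 3; values right of 0 are higher at the earlier time. Intervals for *CPA3* and *KIT* lie right of 0 between -4 wkpp and MNEB at 1 wkpp, and all intervals within MNEB include 0; *FCER1A* was too low to be fitted there.

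From 1 to 16 wkpp, no gene passed in MNEB (0 of 9747 with limma voom and with limma trend, background 0%) or in SNEB (0 of 10442 with both, background 0%). Without the adjustment, p was below 0.05 on exonic counts for 1317 and 746 genes, and on whole-gene counts for 1325 and 715. In MNEB, 7 of the 8 genes were high enough to be tested and none had a p below 0.05, beside 13.5% of all genes on exonic counts. The groups overlapped in all 7, whereas 20.1% of all genes did not overlap. *CPA3* differed by 0.02 (95% interval -1.11 to 1.14), *KIT* by -0.06 (-0.71 to 0.60) and *AOC1* by 1.06 (-0.18 to 2.30), first time minus second. The widest interval was that of *HDC*, -1.85 (-5.46 to 1.76), with MNEB libraries at 3.12, 29.6 and 0 at the first time and at 39.1, 0 and 67.5 at the second.

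In SNEB, 2 of the 8 genes had an unadjusted p below 0.05 on exonic counts between 1 and 16 wkpp, where 7.14% of all genes did, and 1 of them, *FCER1A*, on whole-gene counts, where 6.85% did. *FCER1A* was lower at 1 wkpp by a log2 difference of -1.80 (-3.59 to -0.02) and *HNMT* by -0.41 (-0.82 to -0.00), each with an adjusted p of 0.684. The difference of *FCER1A* was -2.99 without SNEB library 2 at 1 wkpp and -1.11 without library 3. *AOC1* differed by -0.94 (-2.06 to 0.19), *CPA3* by -0.30 (-1.44 to 0.84), *KIT* by -0.41 (-1.02 to 0.20) and *HDC* by -0.61 (-2.74 to 1.52). Without overlap between the times were *HNMT* and *GATA2*, 2 of the 8, beside 12% of all genes. In both SNEB and MNEB, the libraries at 1 and 16 wkpp are those of the comparisons that the genes were chosen on. The values of these genes between the times are thus not independent of the choice.

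The mean of *AOC1* was 232 at 1 wkpp and 120 at 16 wkpp in MNEB, and 1500 and 2430 in SNEB, with overlapping libraries in both. The difference of these changes (1 minus 16 wkpp, SNEB minus MNEB) was -2.13 on the log2 scale on exonic counts. It is formed from the contrasts of SNEB and MNEB that the genes were chosen on, so it is given without a test for *AOC1* and the other 7. Over all 10196 genes, none passed the interaction term in limma voom (background 0%, also with limma trend), while 507, or 4.97%, had an unadjusted p below 0.05 on exonic counts.

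Between SNEB and MNEB, the comparison that the genes were chosen on, the mean exonic level of 7 of the 8 genes was higher in SNEB at 1 wkpp (6 without SNEB library 2, where *HDC* was lower), and of 6 at 16 wkpp, while that of *GATA2* was higher in MNEB at both. At 1 wkpp the ratio of the mean exonic levels was 20.7 for *CPA3*, 6.45 for *AOC1*, 4.6 for *KIT*, 4.05 for *HDC*, 2.21 for *HNMT* and 1.87 for *HRH1*. For *FCER1A* it was 12.7, and the ratio of its summed reads, 203 against 3 and scaled for depth, was 21.1, with a 95% interval of 7.11 to 103 that covers counting error only. Several of these ratios rested on single libraries. Without SNEB library 2 the ratio was 11.7 for *CPA3*, 3.67 for *AOC1*, 2.88 for *FCER1A* and 0.822 for *HDC*, whose direction turned. Without MNEB library 1 it was 11.7 for *AOC1* and 8.44 for *FCER1A*, and without MNEB library 2 it was 28.3 for *HDC* and 20.8 for *FCER1A*. *FCER1A* aside, the exonic levels of the groups did not overlap in 5 of the 8 genes, where 39.7% of all genes did not overlap, and *HRH1*, 1 of these 5, overlapped on whole-gene counts. For *FCER1A* the lowest SNEB level, 6.53, was under the 8.06 and 11 that 3 reads stand for in MNEB libraries 2 and 3, so an overlap could not be judged at this depth. *HDC* overlapped, with 6.53 to 114 in SNEB and 0 to 29.6 in MNEB, and so did *GATA2*, with a ratio of 0.605.

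At 16 wkpp the ratio was 20.3 for *AOC1*, 16.9 for *CPA3*, 8.91 for *FCER1A* (6.72 from summed reads, with a counting interval of 4.24 to 11.3), 5.65 for *KIT*, 2.75 for *HNMT* and 2.32 for *HRH1*, and 0.572 for *GATA2*. *HDC* differed little between the means, 34.8 ± 19.1 in SNEB and 35.5 ± 33.9 in MNEB, with a ratio of 0.979. Without MNEB library 1 the ratio of *FCER1A* was 17.4, and without MNEB library 3 that of *HDC* was 1.78. The exonic levels did not overlap in 7 of the 8 genes, where 44% of all genes did not overlap. In the fit over all genes, the background of DEGs was 0% of 10316 genes at 1 wkpp (limma voom and limma trend, 3332 with an unadjusted p below 0.05 on exonic counts) and 3.61% of 10106 at 16 wkpp. Without MNEB library 1 at 1 wkpp the first count was 459 genes, and at 16 wkpp the count fell from 365 to between 32 and 105 without any one library.

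Reads outside exons took a larger share of *CPA3*, *KIT*, *HRH1*, *HDC*, *FCER1A* and *HNMT* in the summed libraries of MNEB at 1 wkpp than in any other group. For *CPA3* they made up 71.1% of the 152 whole-gene reads of the group (exact 95% interval 63.2 to 78.1%), beside 36.3% at -4 wkpp, 34.2% in SNEB at 1 wkpp and 47.4% in MNEB at 16 wkpp. *KIT* had 66.6% beside 46.8% at -4 wkpp, and *HRH1* 78.9% beside 61.8%. *HDC* had 82.7% of 81 reads beside 68.3%, and *FCER1A* 81.2% of 16 reads beside 9.54%. In single libraries, the share for *CPA3* was 42% in MNEB library 1 at 1 wkpp and 85.5 and 85.1% in libraries 2 and 3, against 41.9, 14.2 and 43.9% at -4 wkpp. For *HNMT* it was 64.3% in MNEB at 1 wkpp and 59.2% at -4 wkpp. *AOC1* stayed between 7.64 and 12.5% in all groups, with 11.7% in MNEB at 1 wkpp and 12.5% at -4 wkpp, and *GATA2* was lower in MNEB, at 12.7 and 8.45%. Over all genes, the share per library was 46.9 to 53.2% in MNEB at 1 wkpp and 47.3 to 61.3% at -4 wkpp.

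Between SNEB and MNEB at 1 wkpp, the ratio of the means was smaller on whole-gene counts for each gene higher in SNEB. It was 2.26 for *FCER1A*, 6.54 for *CPA3*, 1.8 for *HDC*, 2.69 for *KIT* and 1.14 for *HRH1*, against 12.7, 20.7, 4.05, 4.6 and 1.87 on exonic counts. For *HNMT* it was 1.83 against 2.21 and for *AOC1* 5.89 against 6.45. At 16 wkpp the ratio was larger on whole-gene counts for *HNMT*, at 3.39 against 2.75, and for *HDC*, at 1.41 against 0.979, where the direction turned. For *CPA3* it was then 10.6 against 16.9, for *KIT* 3.95 against 5.65 and for *AOC1* 17.5 against 20.3. The source of the reads outside exons was not tested.

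**Figure D3:**
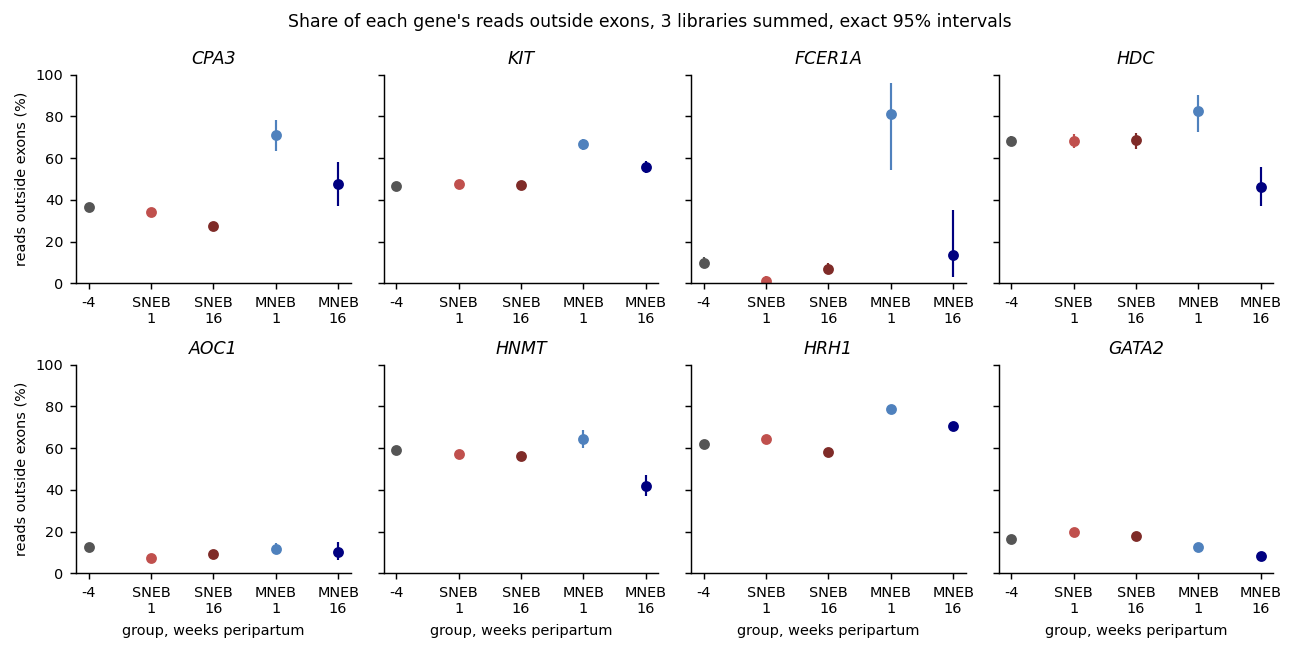
Share of the whole-gene reads of each gene that lay outside its exons (vertical axis, %), with the 3 libraries of a group summed; bars are exact 95% binomial intervals, which cover counting error only. The share of *CPA3*, *KIT*, *HRH1*, *HDC*, *FCER1A* and *HNMT* is highest in MNEB at 1 wkpp, while that of *AOC1* is low in all groups.

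Across the 15 libraries, *CPA3* and *KIT* went together most closely, with a Pearson correlation of 0.98 between their log2 exonic levels and of 0.80 after the mean of each group was taken off. *FCER1A* and *HDC* had a correlation of 0.83, and of 0.78 within groups. *AOC1* and *CPA3* had 0.89 over all libraries and 0.57 within groups, while *HNMT* and *CPA3* had 0.80 and -0.01. The libraries fall into groups and differ in depth, so these values are a description.

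The genes most like *CPA3* were taken from 8970 other genes with a mean normalised exonic count of at least 50. They were *DAD1* (r = 0.965), *TMEM97*, *CD52*, *MFAP5*, *PDGFRA*, *DAB2*, *TLR1*, *CTSV*, *ISLR* and *C1S* (r = 0.957), over the same 15 libraries. Among them, *PDGFRA*, a marker of fibroblasts and fat cell progenitors, was at 5350 to 10600 at -4 wkpp and in SNEB and at 1230 to 3030 in MNEB. For *AOC1* they were *C1QB* (r = 0.969), *C1QA*, *C1QC*, *CR2* and *CDC42SE1* (r = 0.949), the first 3 of which encode the chains of complement C1q, made largely by macrophages. *C1QA* was at 5160 to 7560 in SNEB at 16 wkpp and at 286 to 767 in MNEB at 16 wkpp.

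Other genes of mast cells were read from lists that name each gene by its role. Of 25 further genes of mast cell granules and surface, 14 were in the data, and 11 were tested between -4 wkpp and MNEB at 1 wkpp. None was a DEG, and the median log2 difference of the 11 was 1.46, beside 0.05 for all genes. On exonic counts alone, *TPSB2* aside, 3 passed, *CD63*, *SRGN* and *ALOX5*, all higher at -4 wkpp, where 7.19% of all genes passed in that direction. The 4 genes with the highest exonic counts were *CD63*, a granule membrane protein (log2 difference 1.57 ± 0.25), *SRGN*, the granule proteoglycan (1.79 ± 0.37), *IL1RL1*, the receptor for interleukin-33 (1.43 ± 0.38), and *ALOX5*, of leukotriene synthesis (1.46 ± 0.24). *TPSB2* had 231 to 274 normalised counts at -4 wkpp, 11.8 to 158 and 142 to 229 in SNEB and 0 to 10.7 and 7.69 to 45.9 in MNEB at 1 and 16 wkpp, and its reads may be shared with other tryptase genes. With a mean of 4.28 in MNEB at 1 wkpp, it was high enough to be tested only through the libraries at -4 wkpp, so these levels are a description. Between -4 wkpp and SNEB at 1 wkpp the median of this list was 0.54, with no DEG and none passing on exonic counts.

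Between SNEB and MNEB at 16 wkpp, 2 of the 11 tested genes of this list were DEGs (background 3.61%), both higher in SNEB, and the median was 1.35 beside 0.03 for all genes. These were *SRGN* (log2 difference 1.74 ± 0.27) and *IL1RL1* (1.35 ± 0.25), both also expressed by other immune cells. Both calls were lost without any one of the 6 libraries. Of 9 other settings, the call of *SRGN* held in 4 and that of *IL1RL1* in 6. At 1 wkpp no gene of the list was a DEG, and the median was 1.49 beside 0.07.

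In the signalling list of the IgE receptor, 1 of 19 genes was a DEG between -4 wkpp and MNEB at 1 wkpp, beside 1.51% of all genes. *PLCG1*, a phospholipase found in most cells, was expressed less at -4 wkpp, by -2.21 ± 0.22. Between SNEB and MNEB at 16 wkpp 2 genes were DEGs, beside 3.61% of all genes, *PLCG1* lower in SNEB (-1.49 ± 0.17) and *SYK*, a kinase of immune receptors named after its values were seen, higher (1.54 ± 0.27). The median of the list was 0.14 and 0.70 in these comparisons, and 0.18 between -4 wkpp and SNEB at 1 wkpp. In each comparison these calls held in 1 of the 6 fits that left out a library: that of *PLCG1* without the first MNEB library in both, and that of *SYK* without the second SNEB library. *FYN*, *STIM1* and *INPP5D*, next in exonic count on the list, were not DEGs.

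Of 12 genes of other histamine receptors, transport and breakdown, 7 were in the data and 6 were tested, all of them enzymes of breakdown. None was a DEG in any comparison. The other histamine receptors had no values, and no transporter was tested. On exonic counts alone, 3 passed between -4 wkpp and MNEB at 1 wkpp, all higher at -4 wkpp, where 7.19% of all genes passed in that direction. These were *AOC3* (log2 difference 1.07 ± 0.20), *ALDH7A1* (1.2 ± 0.20) and *MAOB*, named after its values were seen (3.37 ± 0.35). *AOC3*, an amine oxidase of adipocytes and vessels, had a mean of 5810 at -4 wkpp, 3780 and 2950 in SNEB and 2780 and 4240 in MNEB at 1 and 16 wkpp. *MAOA* was at 1400, 2330, 2200, 1080 and 1280 in the same order. Of 27 growth factors and transcription factors of mast cells, 20 were in the data and none was a DEG. Between -4 wkpp and MNEB at 1 wkpp 15 were tested, with a median log2 difference of -0.12. On exonic counts alone, 1 passed higher and 1 lower at -4 wkpp, where 745 and 949 of 10365 genes did. These were *KITLG*, the KIT ligand (1.31 ± 0.25), and *RUNX1* (-1.42 ± 0.27, but 0.52 ± 0.26 on whole-gene counts), both named after their values were seen. Of 9 genes of prostaglandin D2, 7 were tested with no DEG, and the most abundant, the synthase *PTGDS*, had means of 939 at -4 wkpp, 960 and 1400 in SNEB and 1100 and 676 in MNEB.

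Markers of some other cell types also differed between the groups. The 9 macrophage markers summed to 9360 to 17200 at -4 wkpp, 12000 to 26500 and 22400 to 28700 in SNEB at 1 and 16 wkpp, and 2670 to 9940 and 2820 to 3770 in MNEB. Between SNEB and MNEB at 16 wkpp, 3 of 6 tested macrophage markers were DEGs (background 3.61%), all higher in SNEB, among them *CD163* (log2 difference 3.31 ± 0.23), and the calls of *CD163* and *CSF1R* held without any one library. The 6 lymphatic endothelium markers summed to 3680 to 7310 at -4 wkpp and in SNEB and to 892 to 2530 in MNEB. The 9 adipocyte markers did not follow these genes in SNEB: they summed to 35500 to 41400 at -4 wkpp, 37300 to 42200 and 22700 to 29900 in SNEB at 1 and 16 wkpp, and 8420 to 28100 in MNEB. Of them, 5 of 8 tested were DEGs higher at -4 wkpp than in MNEB at 1 wkpp (background 0.878%), calls of which at most 3 held in a fit without a library, while the lipases *LIPE* and *PNPLA2* had log2 differences of -0.93 ± 0.26 and -0.51 ± 0.19 and did not pass. *PLIN1*, which coats lipid droplets, had means of 6890 to 22500 over the groups, so the labelled tissue had this marker throughout.

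The sum of the 10 skeletal muscle markers was 97 to 364 at -4 wkpp and in SNEB and 1180 to 4080 in MNEB, which came mainly from *TNNT3*, with means of 206 at -4 wkpp and 2190 and 2820 in MNEB at 1 and 16 wkpp. The other muscle markers were low in all groups: *MYH7* had means of 15.8 at -4 wkpp and 26.4 and 3.1 in MNEB, and *MYH1* of 7.19, 33.2 and 2.53. The summed levels of the 10 T cell markers overlapped in all groups, from 255 to 669, mainly from *CD247* and *ZAP70*. *CD3E*, of the T cell receptor complex, was at 56.1 to 84.3 at -4 wkpp, 20.3 to 97.6 in SNEB and 15.6 to 32.9 in MNEB. *CD3D*, of the same complex and named after its values were seen, was at 0 to 13.5 in MNEB and at 13.7 to 73.7 in the other groups. Basophils share the IgE receptor with mast cells, and of 10 basophil and eosinophil genes 4 were in the data, of which *CD9*, found on many cells, was at 2020 to 2180 at -4 wkpp, 1280 to 1760 and 1760 to 3880 in SNEB, and 680 to 1190 and 1360 to 2800 in MNEB at 1 and 16 wkpp. *CCR3*, the eotaxin receptor, was at 14.1 to 21.9 at -4 wkpp, 4.3 to 25.8 in SNEB, and 6.24 to 113 and 6.84 to 32.4 in MNEB. The part of these cell types in the levels of the mast cell and histamine genes was not tested. In whole tissue, fewer mast cells and less RNA of these genes per cell cannot be told apart.

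**Figure D4:**
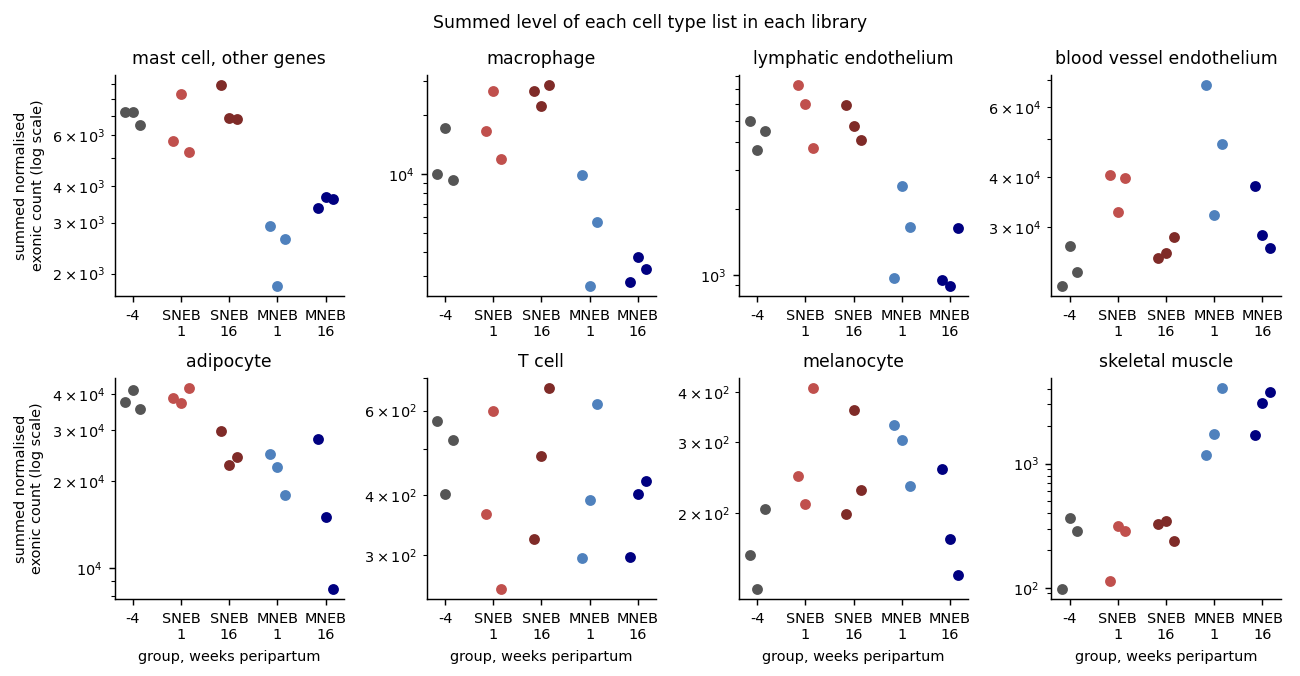
Summed normalised exonic count (log scale) of 8 lists of cell type markers in the 15 libraries, by group; each point is a library. The sums of mast cells without the 8 genes above, macrophages (except 1 library at 1 wkpp) and lymphatic endothelium are lower in MNEB. The mast cell sum is mostly *CD63* and *SRGN*, and not every gene of that list is lower in MNEB. The T cell sum overlaps in all groups, and the skeletal muscle sum, mostly *TNNT3*, is higher in MNEB.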

How the data were processed

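The authors sequenced ribosome-depleted, stranded libraries, trimmed the reads with Cutadapt 1.3 after bcl2fastq 2.15.0, aligned them to bosTau8 with TopHat2, counted them per gene with HTSeq on exons and on entire genes, and compared groups with DESeq2. They deposited 6 tables, one per comparison. Each holds, for both analyses, the mean over 6 libraries of the normalised count and the log2 fold change, its standard error, the Wald statistic and p-values of the authors' test. Only the mean normalised counts were used here. The authors' comparison columns were not. Columns from other samples numbered 0.

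The deposited means carry 15 digits. A library's share of a mean is its whole-number count divided by 6 times its size factor, and these steps were read from genes with 1 read in 1 library. Each library enters more than 1 table, so the counts of a gene were solved jointly, by lattice reduction, and kept where they returned every mean within a relative tolerance of 1e-14. The group of a library follows from the tables it enters, but no library could be tied to a cow. In all, 99.7% of entries with exonic and 99.5% with whole-gene reads were solved; 68 entries, 10 of them spike-ins, were set aside, mostly those above 50000 counts, which leaves 13838 genes. Recomputed size factors deviated by at most 0.046% and 0.22%. On simulated counts, 673 and 671 solutions were accepted and 0 were wrong. The tolerance, the limit of 50000 and the matching of some libraries by elimination were set after the data were seen. Some low genes had more exonic than whole-gene reads (1.82% of pairs), and their intronic share was taken as 0 in single libraries.

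Each comparison was fitted alone with limma 3.58.1 (voom, prior count 0.5, median-ratio size factors, 3 libraries against 3) in R 4.3.3 on genes with a mean normalised count of at least 10, with Benjamini-Hochberg adjustment over all of them. The design called for limma because the deposited tables hold no count column. The interaction used the 12 libraries at 1 and 16 wkpp. The fit was tested on simulated data. The 8 genes and the lists were chosen with earlier results of these data known. Of a list, at most the 4 genes with the highest mean exonic count were named. *TPSB2*, *SYK*, *CD3D*, *MAOB*, *KITLG* and *RUNX1* were named beside them, after their values were seen. Alternatives were each analysis alone, an adjusted p below 0.05, total count and upper quartile scaling, no filter, limma trend, a prior count of 2, all 15 libraries in 1 fit, and leaving out each library. Counts were solved and figures drawn in Python 3.11.15 (numpy 2.4.6, sympy 1.14.0, matplotlib 3.10.9). Tables used pandas 2.3.3, and intervals scipy 1.17.1.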

Additional observations from a re-analysis of the deposited data

Results flagged for a closer look

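The synthetic spike-in RNAs, which the comparisons of genes do not use, took a larger share of exonic counts in every MNEB library than in any library at -4 wkpp, where they took at most 0.862%. In MNEB at 1 wkpp the share was 1.62% in library 1, 7.04% in library 2 and 11.8% in library 3. At 16 wkpp it was 1.82%, 5.21% and 4.25% in the same order. These shares leave out the 10 spike-ins that were set aside. The MNEB libraries are also those in which *CPA3*, *KIT*, *AOC1*, *HNMT* and *HRH1* had their lowest exonic levels. In library 1 at 1 wkpp, which had the lowest spike-in share of MNEB and 6278438 exonic counts, *CPA3* was at 30.2 and *KIT* at 256, against 21.5 and 25.6, and 220 and 406, in the other 2 libraries. *AOC1* was higher there than in the others, at 442 against 113 and 143, and so was *HRH1*, at 485 against 314 and 380, while *HNMT* was lower, at 62.4 against 199 and 161.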

How the results depend on the processing

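No paired analysis was possible because the labels give no replicate numbers or cow identities that the groups share, and the solved libraries cannot be tied to cows. The paper describes repeated biopsies of each animal over time. Libraries of the same diet at 1 and 16 wkpp may therefore share cows, and they were fitted as independent. Counts of DEGs depended on the setting. Between -4 wkpp and MNEB at 1 wkpp the 156 DEGs became 1694 on exonic counts alone, 1031 at an adjusted p below 0.05, 53 with no filter and 1038 with all 15 libraries, and 0 to 174 without 1 library. Between -4 wkpp and SNEB at 1 wkpp, 0 became 50, 53 and 21 with exonic counts alone, the 0.05 threshold and all 15 libraries, 7 with limma trend, and 0 to 80 without 1 library. Between SNEB and MNEB at 1 wkpp, 0 became 210, 48 and 297, and 0 to 459 without 1 library; at 16 wkpp, 365 became 1050 on exonic counts and 1336 at 0.05, and 32 to 105 without 1 library. Comparisons of 1 with 16 wkpp and the interaction gave 0 throughout.

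*KIT* lost its call against MNEB at 1 wkpp under total count scaling (log2 difference 3.17), upper quartile scaling (3.19), no filter (3.18) and without any 1 library (2.99 to 3.35). *CPA3* gained it under limma trend (4.94), with all 15 libraries, at 0.05 and on exonic counts. Signs turned only for differences that had not passed. Between -4 wkpp and SNEB at 1 wkpp, *HRH1* gave -0.10 on whole-gene counts and -0.06 to 0.28 without 1 library, and *AOC1* -0.79 to 0.25. From 1 to 16 wkpp in MNEB, *CPA3* gave -0.00 with no filter, -0.20 with limma trend and -0.35 to 0.29 without 1 library, *HNMT* 0.46 on whole-gene counts and -0.64 to 0.53, *KIT* 0.32 and -0.24 to 0.12, and *GATA2* -0.12 to 0.52. In SNEB, *CPA3* gave 0.06 on whole-gene counts and -0.89 to 0.23 without 1 library, and *HDC* -1.86 to 0.13. *HDC* between SNEB and MNEB at 16 wkpp ran from -0.52 to 1.85 without 1 library. In the interaction without 1 library, *CPA3* ran from -0.89 to 0.24, *HDC* from -0.06 to 2.48, *HNMT* from -1.0 to 0.34, *FCER1A* from -1.56 to 1.09 and *GATA2* from -0.28 to 0.39, and *FCER1A* gave -0.61 on whole-gene counts, -0.29 with no filter, -0.97 with limma trend and -0.51 with a prior count of 2. The cause was not tested. Of 869 alternative values for single genes, 808 kept their direction and their side of the threshold. In MNEB, *HDC* rested on 0 to 40 and *FCER1A* on 0 to 16 exonic reads per library.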
